A study of Mus musculus with 16 samples.

Results

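Photoreceptors sorted from mouse retinal organoids grown from induced pluripotent stem cells (iPSCs) were compared between a late and an early period of differentiation, using 7 of the 16 RNA-seq libraries of the series. The late group held 4 libraries, day 25 replicates 1 and 2, day 28 and day 35, and the early group held 3, day 18 replicates 1 and 2 and day 21. Libraries were chosen by the source and day in their labels. The iPSCs were clones made from embryonic fibroblasts of Nrl-GFP mice with doxycycline-inducible lentiviral vectors for Oct3/4, Sox2, Klf4 and c-Myc, and they were kept on fibroblast feeder cells before differentiation. All 7 libraries carried the Nrlp-GFP genotype, in which the Nrl promoter drives green fluorescent protein, and all came from GFP-positive cells, so Nrl activity was itself the gate of the sort. All cultures began in low oxygen, and retinoic acid was in the medium at days 18, 21 and 25 and had been withdrawn before days 28 and 35. The period and this withdrawal cannot be told apart at the last pair of days. The labels state neither which clone gave which library nor whether each library is a culture of its own. The p-values thus reflect how far these 7 libraries vary, part of which may be technical. The other 9 libraries came from organoids of embryonic stem cells (ESCs) with the same transgene and serve only for the test of a difference between sources.

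Rods are the photoreceptors of dim-light vision. In the mouse retina a dividing progenitor leaves the cell cycle, the transcription factor Nrl sets rod fate, and the young rod then builds an outer segment, a modified cilium stacked with membrane discs that hold the light-response machinery. Light activates rod transducin, transducin activates phosphodiesterase 6, the fall in cyclic GMP closes the cyclic-nucleotide-gated channel, and arrestin, a kinase and calcium sensors reset the cascade. Pde6a is a catalytic subunit of that phosphodiesterase, Aipl1 is the chaperone with which the phosphodiesterase is assembled, and Abca4 clears retinoids from outer segment discs.

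Levels are in CPM, scaled estimated read counts, recovered from the deposited gene values as described below. The CPM values did not add up to the same total in each library. Among iPSC libraries their sums ran from 725716 in day 18 replicate 1 to 874489 in day 35. Why the sums differ was not tested. In all, 14335 genes with at least 1 CPM in at least 2 iPSC libraries were tested. The estimated counts held for these libraries in the deposited transcript table sum to between 2573023 for day 28 and 14454287 for day 18 replicate 2, and 1 estimated count was worth between 0.0371 and 0.214 CPM. Not every library stood with its group. The library labelled day 18 replicate 1 stood at 15.99 CPM for Nrl, where the other 6 had 368.5 to 1921 CPM, and at 462.5 CPM for the proliferation antigen Mki67, where the other 6 had 1.20 to 172.2 CPM. Of all 15 other libraries of the series, the nearest to it was ESC day 18 replicate 1 (Pearson correlation 0.992 over 15202 genes, a description of the libraries). The library labelled day 25 replicate 1 was nearest to day 18 replicate 2 and the reverse (0.979). These 2 also held RNA of the Y-linked genes Ddx3y, Eif2s3y and Uty, at a mean of 11.5 CPM in day 25 replicate 1 and 42.2 CPM in day 18 replicate 2, where the other 5 had 0.625 to 1.48 CPM. Kdm5d, also Y-linked, is not in that mean and did not set day 25 replicate 1 apart, with 8.76 CPM there, 17.5 CPM in day 18 replicate 2 and 6.52 to 10.6 CPM in the other 5. In ESC libraries the mean of Ddx3y, Eif2s3y and Uty was 0.927 CPM in day 18 replicate 1 and 25.6 to 73.8 CPM in all others. Whether any source label is wrong was not tested. None of the pairs compared in this way agreed within sampling noise: the chi-square per degree of freedom was 34.4 for the day 25 pair, 184 for the day 18 pair and 16.7 for day 25 replicate 1 with day 18 replicate 2. All libraries were kept in the groups of their labels. Results are given with all libraries, and for many genes and lists also without day 25 replicate 1 or day 18 replicate 1.

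**Figure D1:**
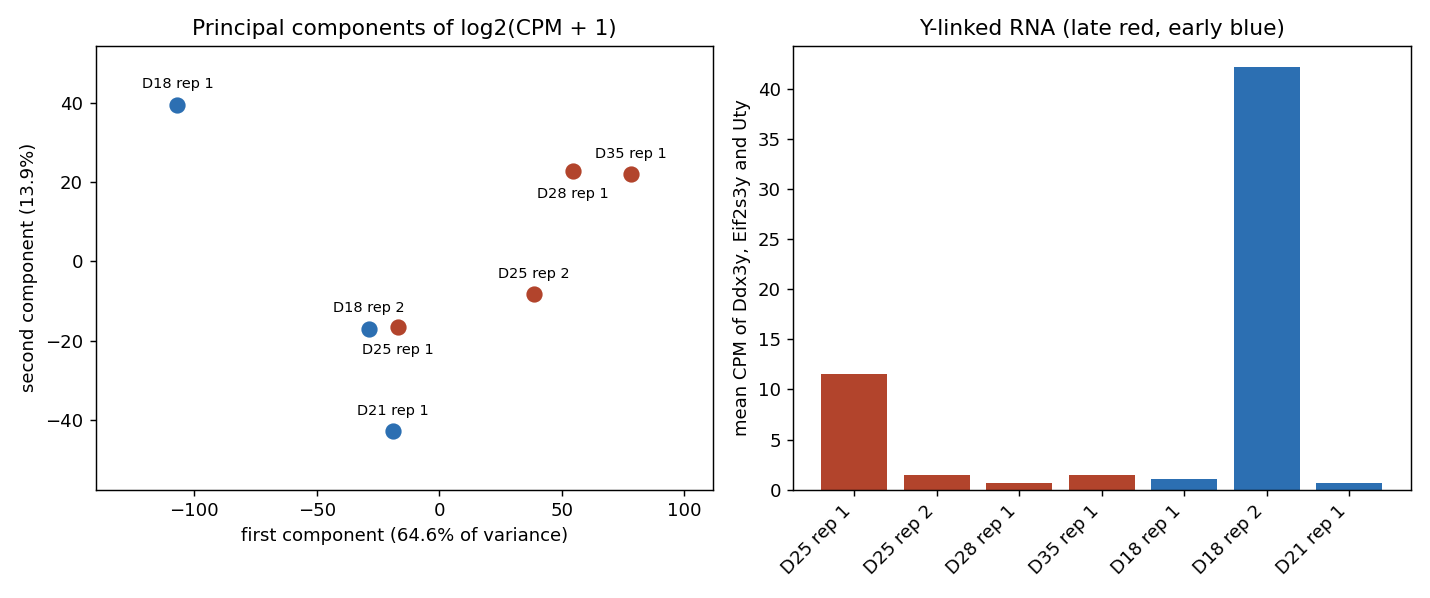
The 7 iPSC libraries by the first and second principal component of log2(CPM + 1), left, and the mean CPM of the Y-linked genes Ddx3y, Eif2s3y and Uty in each library, right, with late libraries in red and early libraries in blue. Day 25 replicate 1 lies beside day 18 replicate 2, day 18 replicate 1 lies far from the other libraries along the first component (64.6% of the variance), and those 2 neighbouring libraries have the highest mean of the 3 Y-linked genes.

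No gene passed the adjusted test with all 7 libraries, although 3322 reached an unadjusted p under 0.05. Limma with trend on log2(CPM + 1) called 0 of 14335 genes (0%) at a Benjamini-Hochberg adjusted p under 0.05, and the smallest adjusted p was 0.144, a value shared by many genes because the adjustment gives neighbouring ranks the same p. Of those 3322, 1379 were higher in late libraries (9.62%) and 1943 lower (13.6%). On gene sums of estimated counts, edgeR's quasi-likelihood test called 0 of 8941 genes (2021 at an unadjusted p under 0.05) and DESeq2 called 825 of 8900. Without day 25 replicate 1, limma called 1279 genes, 495 higher (3.45%) and 784 lower (5.47%), and that was the single library whose removal gave any call. Without day 18 replicate 1, limma called 0 genes and 1989 reached an unadjusted p under 0.05. The smallest adjusted p by limma was then 0.319. In place of the periods, a slope on day over all 7 libraries called 1946 genes, 815 higher with day (5.69%) and 1131 lower (7.89%). The slope rests on the last days: it called 479 genes without day 28 and 0 without day 35. Both the slope and the fit without day 25 replicate 1 called 953 genes in the same direction. These were 49% of the calls by the slope and 74.5% of those without day 25 replicate 1. Below, "rose" and "fell" are used of genes called by the slope on day or without day 25 replicate 1, with that fit named, and values alone are given of the others. No gene so described passed the test of periods with all 7 libraries. Day 25 replicate 1 is the late library most like an early one. Leaving it out favours separate groups, so calls from that fit describe the other libraries and are no independent support.

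By the levels themselves, every late library lay above every early library for 1051 genes (7.33%) and below for 1464 (10.2%). Leaving out day 25 replicate 1, the counts were 2403 (16.8%) and 2897 (20.2%). Of those 2403 genes, day 25 replicate 1 lay within the early range for 1161 and below it for 191, and of the 2897 it lay within the early range for 1342 and above it for 91. The median log2 fold change of all genes tested, late minus early, was -0.04, and 46.8% of them were above 0. Rescaling each library to the same CPM sum moved that median to -0.13 and that share to 40.3%. In sorted bulk RNA, fewer cells of a type and less RNA per cell cannot be told apart.

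Pde6a, Aipl1 and Abca4 were all higher in the late libraries on average, and they differed in how early they appeared. In what follows, late values run in the order day 25 replicate 1, day 25 replicate 2, day 28 and day 35, and early values in the order day 18 replicate 1, day 18 replicate 2 and day 21. Pde6a had 9.56, 23.9, 66.4 and 226 CPM in late libraries, against 0, 1.96 and 3.09 CPM in early libraries. Every late value exceeded every early one, day 35 was the highest, and Pde6a averaged 81.4 ± 99.3 CPM in late libraries (SD, n = 4) and 1.68 ± 1.56 CPM in early libraries (SD, n = 3). Its log2 fold change was 4.29 (SE 0.964, 95% interval 2.09 to 6.48, adjusted p = 0.144 by limma). It rose without day 25 replicate 1 (4.98, adjusted p = 0.0209 by limma) and with day (adjusted p = 0.0109 by limma). Without day 18 replicate 1 the log2 fold change of Pde6a was 3.69 and did not pass (adjusted p = 0.319 by limma).

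Aipl1 had 62.9, 89.2, 185.7 and 429.2 CPM in late libraries, against 4.63, 54.1 and 69.4 CPM in early libraries. The groups overlapped, since day 25 replicate 1 was below day 21. Its log2 fold change was 2.39 (SE 0.929, limma adjusted p = 0.18), and 1.24 without day 18 replicate 1, where Aipl1 was 4.63 CPM. Aipl1 rose with day (limma adjusted p = 0.0263). Abca4 had 544.4, 1013, 909.3 and 1536 CPM in late libraries, against 56.2, 382.9 and 519.2 CPM in early libraries. Late and early values were separate, though day 25 replicate 1 and day 21 lay close together. Its log2 fold change was 2.06 (SE 0.718, limma adjusted p = 0.16), and 1.07 without day 18 replicate 1, and the slope on day did not pass (adjusted p = 0.0516 by limma). In GRCm38, Aipl1 is annotated as a protein-coding gene on chromosome 11 from 72028717 to 72042460, and Abca4 as one on chromosome 3 from 122043891 to 122180070.

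Promoter sequence is shown for Aipl1, for Abca4 and for Cnga1 and Cngb1, the rod channel subunits with some of the largest differences below. Each stretch runs from 250 bases before to 50 bases after the transcript start that RefSeq lists in build GRCm38.p6, and for Aipl1 and Abca4 that start lies inside the annotated gene span. Capitals mark the core motif bound by CRX, the photoreceptor homeobox factor (TAATCC or its reverse complement GGATTA), and the core site of NRL (TGCTGA or its reverse complement TCAGCA). The motifs do not overlap each other. Aipl1 is at chr11:72037460-72037759 on the minus strand, Abca4 at chr3:122044210-122044509 on the plus strand, Cnga1 at chr5:72642703-72643002 on the minus strand and Cngb1 at chr8:95306536-95306835 on the minus strand. All 4 hold at least 1 CRX core, and Aipl1 also holds the NRL core:
Aipl1: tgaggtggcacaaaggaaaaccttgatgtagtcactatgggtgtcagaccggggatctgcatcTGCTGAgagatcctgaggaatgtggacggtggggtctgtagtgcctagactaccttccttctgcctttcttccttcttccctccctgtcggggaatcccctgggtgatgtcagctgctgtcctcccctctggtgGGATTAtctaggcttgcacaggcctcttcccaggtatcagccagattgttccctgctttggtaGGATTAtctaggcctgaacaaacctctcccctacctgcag
Abca4: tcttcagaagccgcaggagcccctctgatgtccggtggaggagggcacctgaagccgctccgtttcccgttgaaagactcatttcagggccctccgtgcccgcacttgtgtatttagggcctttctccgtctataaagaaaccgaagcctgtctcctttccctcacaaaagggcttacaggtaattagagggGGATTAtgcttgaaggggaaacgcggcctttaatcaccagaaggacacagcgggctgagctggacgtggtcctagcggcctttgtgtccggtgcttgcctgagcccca
Cnga1: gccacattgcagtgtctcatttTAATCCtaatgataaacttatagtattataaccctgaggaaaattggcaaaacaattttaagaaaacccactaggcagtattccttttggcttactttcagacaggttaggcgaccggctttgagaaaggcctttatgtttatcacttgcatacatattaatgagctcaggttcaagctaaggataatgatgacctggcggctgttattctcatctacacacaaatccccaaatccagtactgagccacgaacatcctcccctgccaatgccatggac
Cngb1: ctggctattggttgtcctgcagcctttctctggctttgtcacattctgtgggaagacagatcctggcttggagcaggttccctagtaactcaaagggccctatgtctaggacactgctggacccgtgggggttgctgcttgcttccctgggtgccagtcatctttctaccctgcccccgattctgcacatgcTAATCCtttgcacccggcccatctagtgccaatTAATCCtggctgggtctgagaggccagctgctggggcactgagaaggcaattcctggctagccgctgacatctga
Of the 20 rod phototransduction genes listed, 14 had a promoter in that table. The CRX core was in 8 of those 14 (57.1%), in 0 of 27 promoters of listed cell cycle genes and in 7.16% of all 27025 promoters of the same length. The NRL core was in 4 of the 14 (28.6%), in 3 of the 27 (11.1%) and in 19.1% of all. A match is a run of letters in the window and was not tested as a binding site.

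The rod light-response genes as a group were higher in the late libraries. Of the 20 listed, 19 passed the filter on low values, and Guca1a, a calcium sensor of the cyclases, did not, with 0.30 to 1.05 CPM in late libraries and 0 to 0.16 CPM in early libraries. All 19 had a positive log2 fold change, with a median of 3.09 beside -0.04 for all genes, and late and early libraries did not overlap in 15 beside 7.33% of all genes. The median was 2.29 without day 18 replicate 1 and 3.70 without day 25 replicate 1. Without day 25 replicate 1, 14 rose beside 3.45% of all genes, and 13 rose with day beside 5.69%. The summed level of the 20 genes was 3658, 8867, 13030 and 14840 CPM in late libraries, against 457.3, 2907 and 1913 CPM in early libraries.

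Transducin and the phosphodiesterase stood at different levels in the early libraries. Gnat1, the alpha subunit of rod transducin, had 13.9, 21.2, 104.4 and 247.9 CPM in late libraries, against 4.68, 5.73 and 5.71 CPM in early libraries. The groups did not overlap, the early libraries were alike, and most of the difference lay in days 28 and 35. Its log2 fold change was 3.09 (SE 0.876, limma adjusted p = 0.144), it was 3.01 without day 18 replicate 1, and Gnat1 rose with day (limma adjusted p = 0.0109). Pde6b, the other catalytic subunit of the phosphodiesterase, had 540.7, 1246, 1616 and 2002 CPM in late libraries, against 0.92, 231.5 and 249.7 CPM in early libraries. It was already high at day 18 replicate 2 and day 21 and nearly absent in day 18 replicate 1. Its log2 fold change of 4.66 (SE 1.53, limma adjusted p = 0.149) was 2.33 without day 18 replicate 1. Pde6g, the inhibitory subunit, had 72.4, 243.2, 690.4 and 933 CPM in late libraries, against 0.40, 26.9 and 18.0 CPM in early libraries. The groups did not overlap (log2 fold change 5.18, SE 1.15, limma adjusted p = 0.144), and Pde6g rose both without day 25 replicate 1 and with day (limma adjusted p = 0.0237 and 0.0206).

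The channel subunits differed widely between the day 25 libraries. Cnga1 had 26.2, 234.5, 328.9 and 561.1 CPM in late libraries, against 0.048, 17.3 and 5.16 CPM in early libraries. Its value in day 25 replicate 1 lay near day 18 replicate 2 and well under day 25 replicate 2. The log2 fold change was 5.24 (SE 1.16, limma adjusted p = 0.144) and Cnga1 rose without day 25 replicate 1 (6.17, limma adjusted p = 0.0193). Cngb1 had 165.9, 484.3, 672.7 and 1066 CPM in late libraries, against 0.21, 95.01 and 35.1 CPM in early libraries. It did not overlap either (log2 fold change 4.93, SE 1.32, limma adjusted p = 0.144), and it rose without day 25 replicate 1 (adjusted p = 0.049 by limma).

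**Figure D2:**
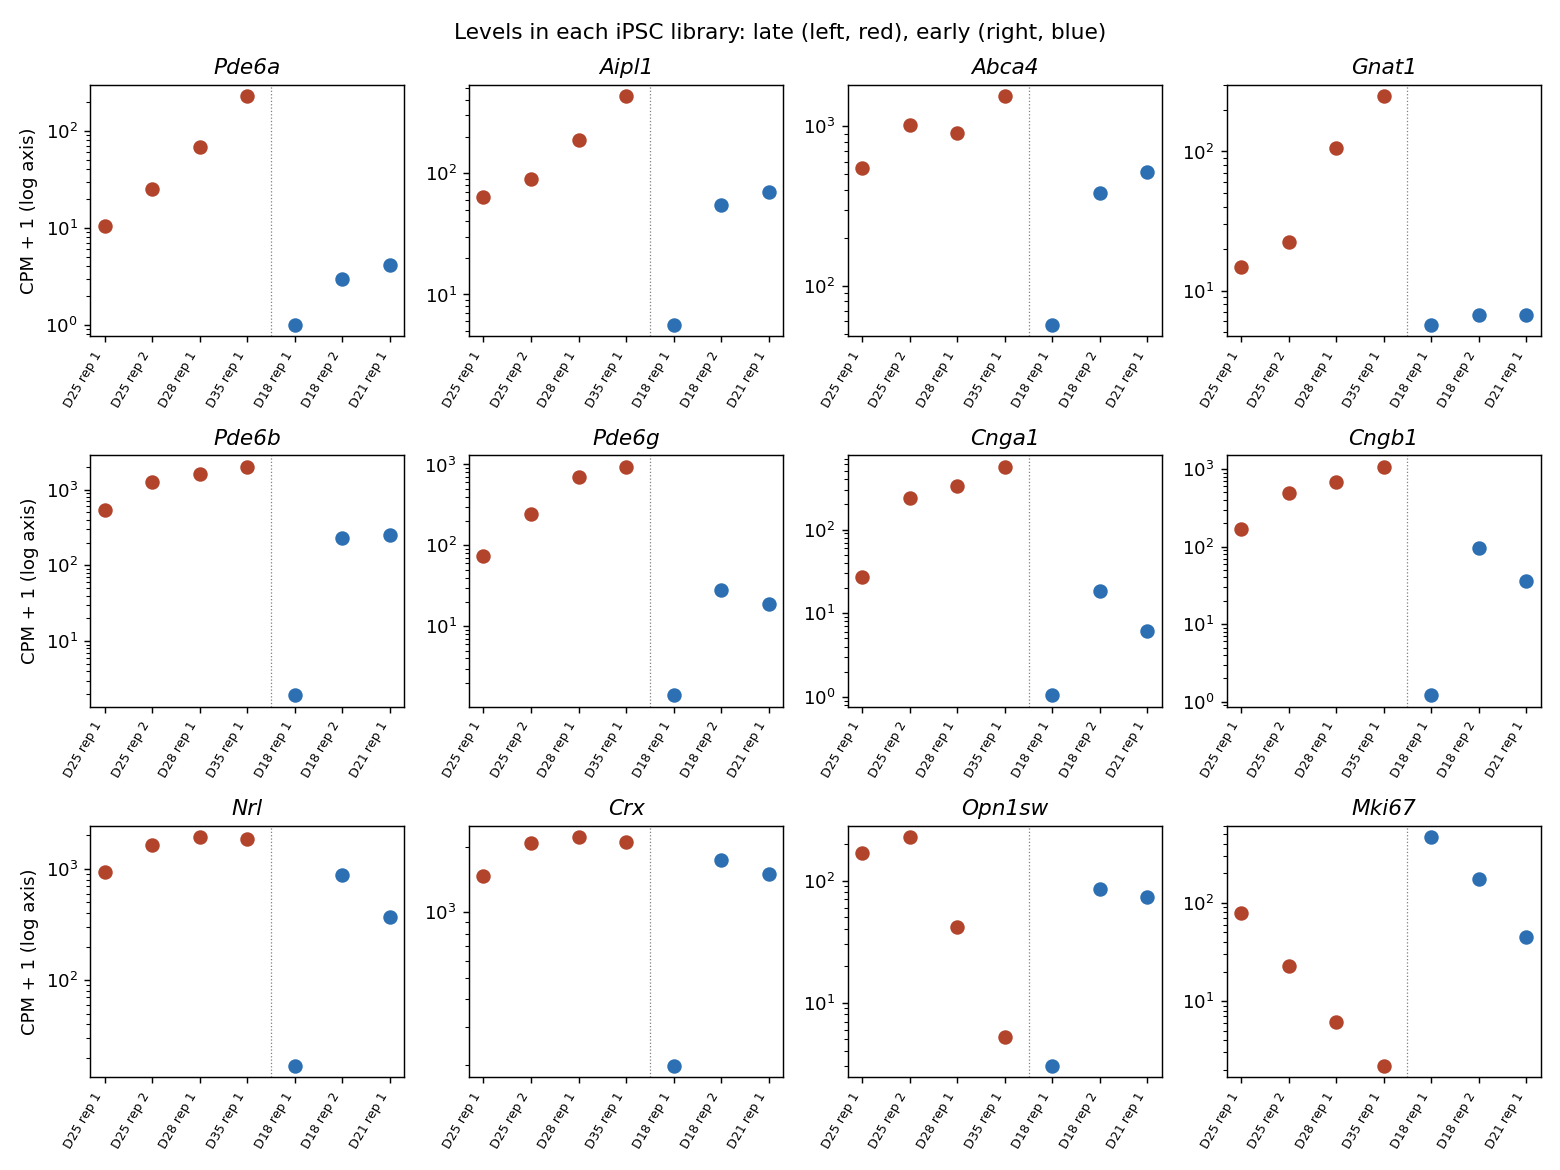
CPM + 1 on a log axis for 12 genes in each iPSC library, with the 4 late libraries in red on the left and the 3 early libraries in blue on the right of each panel. Pde6a and Gnat1 climb through the late libraries to 226 and 247.9 CPM at day 35, Pde6b, Nrl and Crx are low in day 18 replicate 1 alone, and Opn1sw and Mki67 are lowest among late libraries at day 35.

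Genes of proteins that shut off and reset the response differed among themselves. Sag, rod arrestin, had 431.5, 1154, 1152 and 1217 CPM in late libraries, against 9.05, 338.6 and 213.4 CPM in early libraries. Among late libraries day 25 replicate 1 stood apart, and the log2 fold change of 3.34 was 1.76 without day 18 replicate 1 (limma adjusted p = 0.147 with all libraries), and its slope did not pass (limma adjusted p = 0.0852). Rcvrn, the calcium sensor that restrains the receptor kinase, had 21.4, 67.3, 206.3 and 324.4 CPM in late libraries, against 0.12, 10.9 and 4.04 CPM in early libraries. The groups did not overlap, and Rcvrn rose with day (log2 fold change between periods 4.63, limma adjusted p = 0.017 for the slope). Grk1, the kinase itself, was named after its values were seen and overlapped, with 84.0, 180.3, 83.1 and 146.3 CPM in late libraries and 18.9, 95.6 and 48.0 CPM in early libraries. Pdc, phosducin, which binds transducin beta-gamma, was the highest of the list in CPM and overlapped too: it had 1090, 2397, 3574 and 2949 CPM in late libraries, against 46.4, 1237 and 619.5 CPM in early libraries. The slopes of Grk1 and Pdc did not pass (limma adjusted p = 0.148 and 0.103).

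Gnb1, the beta subunit of rod transducin and of other G proteins, had 760.1, 1542, 2753 and 2990 CPM in late libraries, against 337.3, 541.5 and 421.6 CPM in early libraries. Unlike Pde6b it was well expressed in day 18 replicate 1, and its log2 fold change of 2.05 was 1.88 without that library. Gnb1 rose with day (adjusted p = 0.0218 by limma). The next genes were chosen after their values were seen. Rgs9, which speeds transducin shutoff, rose with day (log2 fold change between periods 2.68, limma adjusted p = 0.0235 for the slope), and its partner Gnb5 did too (2.44, limma adjusted p = 0.0109 for the slope). The guanylate cyclase Gucy2f had 1.83, 1.57, 10.2 and 25.1 CPM in late libraries, against 0.24, 0.15 and 0.091 CPM in early libraries. The other cyclase, Gucy2e, was earlier, with 141.8, 364.7, 377.4 and 477.6 CPM in late libraries and 4.56, 101.3 and 111.8 CPM in early libraries. Gucy2f rose with day (limma adjusted p = 0.0119) and Gucy2e did not pass (limma adjusted p = 0.064).

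Chaperones and carriers of lipid-anchored photoreceptor proteins had smaller differences. Of 14 genes tested, 11 had positive values (median 0.86), 5 did not overlap and were higher, 2 did not overlap and were lower, and 5 rose and 1 fell with day. Of all genes 7.33% and 10.2% did not overlap and were higher and lower, and 5.69% and 7.89% rose and fell with day. The highest by level were Rpgrip1, a scaffold of the connecting cilium, and Hsp90aa1, an HSP90 chaperone. Rpgrip1 had 1056, 2267, 1806 and 3087 CPM in late libraries, against 49.4, 756.5 and 755.7 CPM in early libraries. It did not overlap (log2 fold change 2.64, limma adjusted p = 0.158), while Hsp90aa1 overlapped (0.44, limma adjusted p = 0.445). The paralogue Hsp90ab1, named after its values were seen, had 916.3, 594.4, 684.4 and 412.5 CPM in late libraries, against 1393, 1163 and 1174 CPM in early libraries, and fell with day (adjusted p = 0.0362 by limma). Unc119 and Arl3, the carrier of transducin alpha and the GTPase that unloads it, were chosen in the same way. Arl3 had 54.7, 62.0, 102.9 and 109.3 CPM in late libraries, against 42.5, 47.6 and 42.5 CPM in early libraries, and rose with day (limma adjusted p = 0.0222). Unc119 did not pass by the slope (limma adjusted p = 0.0833) or between periods (log2 fold change 1.78, limma adjusted p = 0.188).

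Genes of the retinoid cycle, which recycles the chromophore, went both ways. Of 14 listed, 13 were tested with a median log2 fold change of 0.42, 8 positive and 5 negative, and 5 did not overlap and were higher, beside 7.33% of all genes. The pair with the highest levels were Rbp3, the retinoid carrier of the matrix between photoreceptors and pigment epithelium, and Abca4. Rbp3 had 4395, 7623, 8312 and 10370 CPM in late libraries, against 207, 3876 and 3349 CPM in early libraries (log2 fold change 2.40, limma adjusted p = 0.216). Most of that value came with day 18 replicate 1, since it was 1.02 without it. Rdh8 and Rdh12, photoreceptor retinol dehydrogenases chosen after their values were seen, were the 2 genes of the list that rose with day. In the list 1 gene fell with day, and of all genes 5.69% rose and 7.89% fell. Rdh8 had 13.1, 52.9, 96.5 and 95.1 CPM in late libraries, against 0, 4.79 and 3.69 CPM in early libraries (limma adjusted p = 0.0214 for the slope), and for Rdh12 the adjusted p was 0.029 by limma.

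Structural genes of the outer segment were also higher in the late libraries. Of 20 listed, 18 were tested, with a median log2 fold change of 2.79, which was 1.70 without day 18 replicate 1 and 3.07 without day 25 replicate 1. In 13 the groups did not overlap, all higher in late libraries, beside 7.33% of all genes, and 9 rose with day, beside 5.69%. Without day 25 replicate 1, 5 rose, beside 3.45%. Prph2, peripherin of the disc rim, had 553, 1144, 1943 and 2520 CPM in late libraries, against 7.97, 340.6 and 272.9 CPM in early libraries. Rom1, its partner in the rim, had 303.3, 619.6, 1156 and 1472 CPM in late libraries, against 3.88, 216.3 and 91.9 CPM in early libraries. Neither overlapped, and both rose with day (limma adjusted p = 0.0492 for Prph2 and 0.0467 for Rom1), close to the threshold. Cdhr1, the protocadherin at the disc base, and Rp1, a microtubule protein of the axoneme, were the highest by level, and both overlapped (log2 fold change 1.80 and 3.69, limma adjusted p = 0.219 and 0.156). Cdhr1 was 111.8 CPM in day 18 replicate 1 against 1016 and 1398 CPM in the other early libraries, and without that library its log2 fold change was 0.67.

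Tub, a tubby family protein, Wdr17, Impg1 and Pcdh15 were chosen after their values were seen. Tub had 225.3, 436.7, 446.4 and 633 CPM in late libraries, against 66.3, 109.1 and 107.2 CPM in early libraries (log2 fold change 2.14, SE 0.350). Tub rose with day (limma adjusted p = 0.015), and its value of 1.91 without day 18 replicate 1 was close to that with all libraries. Wdr17 had 38.0, 111.1, 189.7 and 315.2 CPM in late libraries, against 10.95, 16.7 and 17.7 CPM in early libraries and rose with day (limma adjusted p = 0.0122). Impg1, a proteoglycan of the matrix around photoreceptors, had 32.6, 153.4, 194.7 and 264 CPM in late libraries, against 0.45, 21.4 and 7.97 CPM in early libraries (log2 fold change 4.27, limma adjusted p = 0.0298 for the slope). Pcdh15, a protocadherin of photoreceptors and hair cells, was high from day 25 without a further step, with 231.8, 480.9, 255.4 and 316.4 CPM in late libraries and 3.11, 130.4 and 16.4 CPM in early libraries, and its slope did not pass (limma adjusted p = 0.115).

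Genes of the photoreceptor cilium, of the inner segment and of the ribbon synapse were higher as well, by different amounts. For the cilium list (22 tested) the median was 0.83, 5 genes did not overlap and were higher, beside 7.33% of all genes, 8 rose with day, beside 5.69%, and none fell. Ahi1, of the transition zone, had 104.7, 143.5, 155.6 and 282.2 CPM in late libraries, against 80.7, 118 and 65.1 CPM in early libraries, and rose with day (limma adjusted p = 0.0323). Fam161a, a microtubule protein of the photoreceptor cilium, and Bbs7, a subunit of the BBSome cargo complex, were chosen after their values were seen, and both rose with day (log2 fold change between periods 2.45 and 1.84, limma adjusted p = 0.0282 and 0.0226 for the slope). Bbs7 had 70.2, 164.1, 179.1 and 239.9 CPM in late libraries, against 25.1, 63.8 and 43.0 CPM in early libraries.

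For the 13 inner segment genes the median was 2.08, all 13 values were positive, 6 did not overlap, beside 7.33% of all genes, and 7 rose with day, beside 5.69%. Without day 25 replicate 1, 5 rose, beside 3.45%. Atp1b2, a sodium pump subunit, was the highest by level. It had 1104, 1649, 1631 and 1829 CPM in late libraries, against 129, 1161 and 869.5 CPM in early libraries. The groups overlapped, since day 25 replicate 1 was below day 18 replicate 2, and the log2 fold change of 1.59 (limma adjusted p = 0.215) was 0.60 without day 18 replicate 1.

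For the 23 ribbon synapse genes the median was 1.70, and 0.77 without day 18 replicate 1. In 9 genes the groups did not overlap and late libraries were higher, beside 7.33% of all genes, and 7 rose with day, beside 5.69%. Without day 25 replicate 1, 4 rose, beside 3.45%. The vesicle fusion protein Snap25 had 881.8, 1219, 1401 and 1394 CPM in late libraries, against 139.5, 851 and 894.8 CPM in early libraries. It overlapped and its log2 fold change of 1.34 (limma adjusted p = 0.235) was 0.46 without day 18 replicate 1. Syp, synaptophysin, did not overlap (1.77, limma adjusted p = 0.149) but day 25 replicate 1 at 551.7 CPM lay beside day 18 replicate 2 at 550.2 CPM. Cacna1f and Cplx4 were chosen after their values were seen. Cacna1f, the calcium channel of the photoreceptor terminal, had 61.1, 155.3, 204.3 and 376.8 CPM in late libraries, against 1.78, 20.1 and 19.4 CPM in early libraries (log2 fold change 3.96). Cplx4, a complexin of ribbon synapses, had 13.4, 33.3, 50.9 and 118.8 CPM in late libraries, against 0.40, 8.25 and 4.98 CPM in early libraries (3.30), and both rose with day (limma adjusted p = 0.0174 and 0.0162).

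The rod fate factors were already present in 2 of the 3 early libraries. Nrl had 932.4, 1628, 1921 and 1860 CPM in late libraries, against 15.99, 881.3 and 368.5 CPM in early libraries. Late values were all above early ones, but day 25 replicate 1 and day 18 replicate 2 lay close, and the log2 fold change of 3.11 (SE 1.14, limma adjusted p = 0.168) was 1.42 without day 18 replicate 1. Nr2e3, the factor under Nrl that represses cone genes, had 1038, 1373, 1498 and 1489 CPM in late libraries, against 8.65, 709.4 and 362.7 CPM in early libraries (3.30, limma adjusted p = 0.174, and 1.40 without day 18 replicate 1). Crx had 1466, 2079, 2203 and 2092 CPM in late libraries, against 197.8, 1728 and 1500 CPM in early libraries. It overlapped, with a log2 fold change of 1.27 (limma adjusted p = 0.314) that was 0.27 without day 18 replicate 1. Neurod1, a factor of photoreceptor survival and differentiation, overlapped too (0.62, limma adjusted p = 0.545), and its value turned to -0.20 without day 18 replicate 1 and -0.07 with library weights. Of the 18 factors tested, 4 did not overlap and were higher, beside 7.33% of all genes, and 2 rose and 1 fell with day, beside 5.69% and 7.89%. Without day 25 replicate 1 none was called, beside 3.45% and 5.47%. The list's median of 1.06 was 0.29 without day 18 replicate 1. Those that rose with day, named after their values were seen, were Casz1, a zinc finger factor, with 193.2, 362.7, 289.6 and 465 CPM in late libraries and 42.8, 166.8 and 175.4 CPM in early libraries, and the nuclear receptor Esrrb. Esrrb had 0.89, 2.00, 11.7 and 47.1 CPM in late libraries, against 0.78, 0.48 and 1.05 CPM in early libraries, with its clear steps at days 28 and 35 (limma adjusted p = 0.0143 for the slope).

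Cone genes went both ways. Of 16 listed, 14 were tested, 7 were positive and 7 negative with a median of 0.03. In none did the groups separate, beside 7.33% of all genes higher and 10.2% lower in late libraries. Opn1mw, the medium-wavelength cone opsin, was listed at 0 in all 7 libraries. Opn1sw, the short-wavelength opsin, had 166.6, 224.9, 40.5 and 4.20 CPM in late libraries, against 2.04, 84.3 and 71.8 CPM in early libraries. It was highest in both day 25 libraries and low again at day 35, so its log2 fold change of 1.01 (limma adjusted p = 0.71) turned to -0.56 without day 18 replicate 1 and to -0.86 with late from day 28. Gnat2, cone transducin, had 5.08, 2.16, 3.16 and 1.91 CPM in late libraries, against 4.52, 12.1 and 15.6 CPM in early libraries (-1.45, limma adjusted p = 0.144). Arr3, cone arrestin, was 2.69 to 5.82 CPM in late libraries and 0.947 to 7.81 CPM in early libraries, and overlapped. Gnb3, the cone transducin beta subunit that bipolar cells also express, was the highest by level and overlapped (1.21, limma adjusted p = 0.409), with -0.05 without day 18 replicate 1. Pde6c, the cone phosphodiesterase, was chosen after its values were seen. It had 68.0, 20.0, 6.20 and 1.88 CPM in late libraries, against 21.4, 90.2 and 102.8 CPM in early libraries, and fell with day (adjusted p = 0.0373 by limma).

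Genes of dividing cells were lower in the late libraries. All 32 cell cycle genes had negative log2 fold changes (median -2.11, and -1.49 without day 18 replicate 1 and -2.52 without day 25 replicate 1). The groups did not overlap in 7, beside 10.2% of all genes, and in 27 without day 25 replicate 1, beside 20.2%. Without that library 19 fell, beside 5.47% of all genes, and 25 fell with day, beside 7.89%. The summed level of the list was 774.1, 371.5, 321.5 and 317.5 CPM in late libraries, against 3736, 1769 and 635.5 CPM in early libraries. Mki67 had 77.1, 21.9, 5.14 and 1.20 CPM in late libraries, against 462.5, 172.2 and 43.5 CPM in early libraries. The groups overlapped because day 25 replicate 1 lay above day 21 (log2 fold change -3.62, SE 1.19, limma adjusted p = 0.149), and Mki67 fell with day (limma adjusted p = 0.0122).

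The highest by level were Ccnd1, the cyclin of progenitor divisions, and Top2a, the topoisomerase of dividing cells. Ccnd1 had 84.4, 21.0, 17.8 and 5.59 CPM in late libraries, against 577.7, 305 and 61.0 CPM in early libraries. Top2a had 80.3, 34.8, 27.5 and 21.95 CPM in late libraries, against 403, 189.3 and 56.4 CPM in early libraries. For both, day 25 replicate 1 was above day 21 and below the day 18 libraries, and both fell with day (limma adjusted p = 0.0129 and 0.0246). E2f1, an S phase transcription factor named after its values were seen, did not overlap, with 24.4, 7.04, 3.35 and 2.11 CPM in late libraries and 99.4, 56.0 and 27.6 CPM in early libraries (log2 fold change -2.92, limma adjusted p = 0.0129 for the slope).

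**Figure D3:**
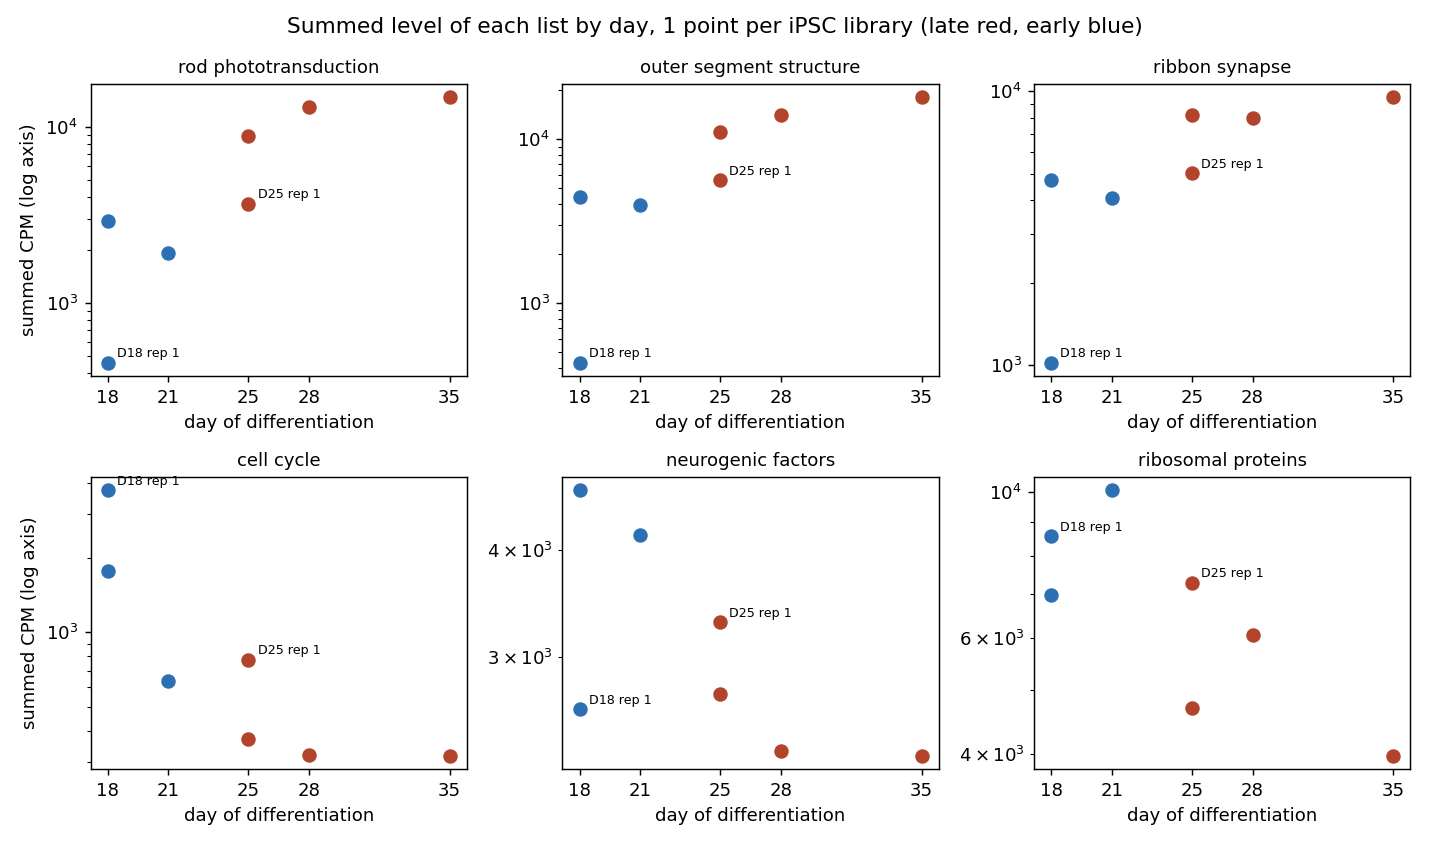
Summed CPM on a log axis of 6 gene lists against day of differentiation, 1 point per iPSC library, late in red and early in blue. The rod phototransduction sum reaches 14840 CPM at day 35 against 457.3 CPM in day 18 replicate 1, the cell cycle sum goes the other way with 317.5 CPM at day 35, and in both panels day 25 replicate 1 is the late library nearest the early ones.

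Retinal progenitor genes were lower in the late libraries too. Of 22 tested, 21 were negative (median -1.95, and -1.43 without day 18 replicate 1), and 8 did not overlap, beside 10.2% of all genes. Without day 25 replicate 1, 14 fell, beside 5.47% of all genes, and 16 fell with day, beside 7.89%. Fgf15, a growth factor of the progenitors, had 86.1, 1.52, 1.92 and 1.17 CPM in late libraries, against 868, 63.8 and 71.9 CPM in early libraries. Day 25 replicate 1 was above 2 of the 3 early libraries and far from the other late libraries, and Fgf15 fell without it (log2 fold change -5.99, limma adjusted p = 0.0193). Sfrp2, a Wnt antagonist named after its values were seen, had 15.7, 3.00, 1.60 and 0.92 CPM in late libraries, against 144.3, 48.5 and 9.20 CPM in early libraries. In it too day 25 replicate 1 was above day 21, and Sfrp2 fell with day (limma adjusted p = 0.022). Hes5, a Notch target, and Dll1, a Notch ligand, were also named after their values were seen. They did not overlap and fell with day (limma adjusted p = 0.0286 and 0.0324). Dll1 had 37.4, 18.3, 3.46 and 6.38 CPM in late libraries, against 112.8, 41.7 and 107.7 CPM in early libraries.

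Among 16 neurogenic factors, which drive cells out of the cycle and into neuronal fates, the median was -2.26 and 9 did not overlap, all lower in late libraries, beside 10.2% of all genes. Without day 25 replicate 1, 10 fell, beside 5.47% of all genes, and 9 fell with day, beside 7.89%. The highest by level were Neurod1, given above, and Btg2, an antiproliferative gene of neurogenic divisions, which overlapped (-0.54, limma adjusted p = 0.446). Neurog2 and Foxn4, early fate factors, were chosen after their values were seen. Neurog2 had 17.0, 4.02, 2.39 and 0.80 CPM in late libraries, against 102, 31.8 and 39.5 CPM in early libraries. Foxn4 had 20.6, 3.59, 0.77 and 0.27 CPM in late libraries, against 100.6, 44.6 and 39.0 CPM in early libraries. In neither did the groups overlap, and both fell with day (limma adjusted p = 0.0143 and 0.0135).

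Retinoic acid genes were lower in part. Of 18 listed, 14 were tested (median -1.25, and -0.51 without day 18 replicate 1), 12 were negative, and 1 rose and 4 fell with day, beside 5.69% and 7.89% of all genes. Aldh1a1, which makes retinoic acid, had 113.2, 10.9, 5.75 and 9.30 CPM in late libraries, against 471, 188.7 and 110.7 CPM in early libraries, and fell without day 25 replicate 1 (-4.52, limma adjusted p = 0.0145). Cyp26b1, which breaks retinoic acid down, had 204.7, 101.3, 11.5 and 2.53 CPM in late libraries, against 244.5, 173.7 and 15.3 CPM in early libraries, and overlapped (-1.52, limma adjusted p = 0.546). Its lowest values were at days 28 and 35, and the slope did not pass (adjusted p = 0.0503 by limma). Cyp26a1, named after its values were seen, had 7.49, 3.59, 0.22 and 0.37 CPM in late libraries, against 68.2, 14.3 and 1.41 CPM in early libraries, and did not pass either (limma adjusted p = 0.0545 for the slope). The receptor Rxra, chosen in the same way, was the 1 member that rose, with 42.6, 61.6, 76.9 and 82.7 CPM in late libraries and 21.3, 30.5 and 37.5 CPM in early libraries (limma adjusted p = 0.0206 for the slope).

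Genes of axon growth and guidance had a median of -1.69 over 19 tested (-0.76 without day 18 replicate 1), and 10 fell with day, beside 7.89% of all genes. In only 1 did the groups not overlap with late libraries lower, beside 10.2% of all genes. Without day 25 replicate 1, 5 fell, beside 5.47%. Stmn1, a regulator of microtubules in growing neurons, had 400.2, 160.8, 116.1 and 76.7 CPM in late libraries, against 788.1, 633 and 370.9 CPM in early libraries, and fell with day (limma adjusted p = 0.0131). Plxna2, a semaphorin receptor, had 160, 231.5, 222.9 and 286.9 CPM in late libraries, against 132.6, 164.8 and 108 CPM in early libraries. It did not pass by the slope (limma adjusted p = 0.0619) or between periods (log2 fold change 0.72, limma adjusted p = 0.149). Islr2, a membrane protein of growing axons named after its values were seen, had 268.3, 50.8, 12.5 and 2.30 CPM in late libraries, against 165.8, 244.5 and 293.4 CPM in early libraries. Day 25 replicate 1 lay inside the early range while the other late libraries were lower at each later day, and Islr2 fell with day (adjusted p = 0.0171 by limma).

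Of the general cell functions, genes of ribosomal proteins had lower values in late libraries, and lists of energy metabolism had medians a little above 0. All 27 ribosomal protein genes were negative (median -0.59), 9 did not overlap, beside 10.2% of all genes, and 6 fell with day, beside 7.89%. Without day 25 replicate 1, 4 fell, beside 5.47%. Reads of these genes can be shared with their many processed pseudogenes, so single values are uncertain. Rps4x had 576.5, 387.8, 438.6 and 229.8 CPM in late libraries, against 794.8, 616.9 and 809.9 CPM in early libraries, and fell with day (limma adjusted p = 0.0304), and Rpl4 overlapped (-0.73, limma adjusted p = 0.19). Their summed level was 7282, 4694, 6072 and 3976 CPM in late libraries, against 8560, 6975 and 10050 CPM in early libraries, so day 25 replicate 1 was above day 18 replicate 2. For 22 oxidative phosphorylation genes the median was 0.36, 4 did not overlap and were higher, beside 7.33% of all genes, and 4 rose with day, beside 5.69%. Atp5b and Atp5a1, subunits of the ATP synthase, overlapped (0.41 and 0.30, limma adjusted p = 0.378 and 0.418).

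For 22 glycolysis genes the median was 0.59 and 7 did not overlap and were higher, beside 7.33% of all genes. With day 1 rose, a count no larger than the 5.69% of all genes would give. Without day 25 replicate 1, 3 rose, beside 3.45%. Ldha and Pkm, lactate dehydrogenase A and pyruvate kinase, were the highest by level and overlapped (0.76 and 0.66, limma adjusted p = 0.433 and 0.445). Hk1, a hexokinase named after its values were seen, rose with day (adjusted p = 0.0168 by limma), with 188.6, 323.5, 459.5 and 641.2 CPM in late libraries, against 44.96, 127.3 and 96.2 CPM in early libraries. In 16 genes of nuclear architecture, the chromatin and lamina genes that are reorganised in mouse rods, the median was -0.56 and 8 fell with day, beside 7.89% of all genes. In 5 the groups did not overlap and late libraries were lower, beside 10.2%. Without day 25 replicate 1, 2 fell, beside 5.47%. H1f0, a linker histone, had 467.3, 198.4, 167.1 and 128.4 CPM in late libraries, against 357.8, 407.5 and 436.3 CPM in early libraries. Day 25 replicate 1 was the highest of all 7 and the other late libraries were below every early one, and H1f0 fell with day (limma adjusted p = 0.0446). Hmgn1, a nucleosome-binding protein, overlapped (0.42, limma adjusted p = 0.47).

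**Figure D4:**
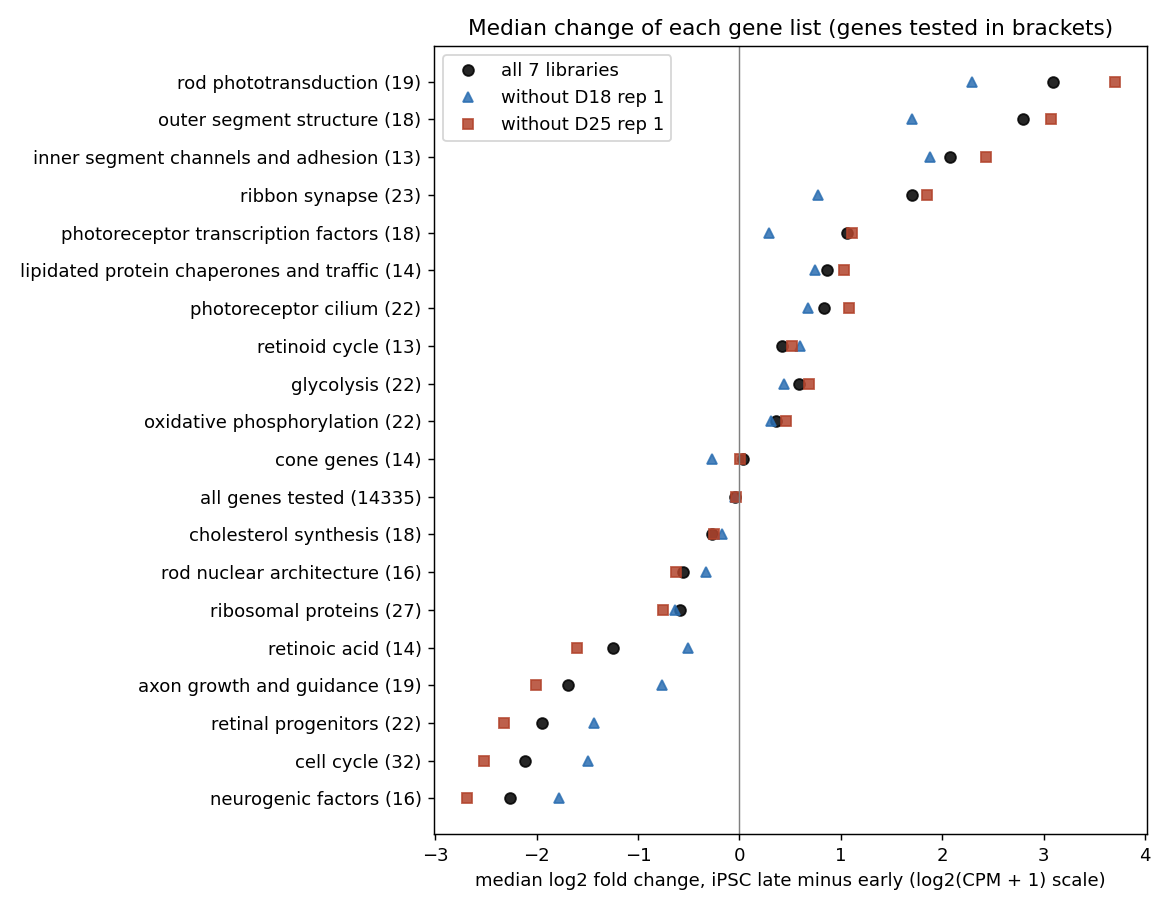
Median log2 fold change, late minus early, of each gene list with all 7 libraries (black), without day 18 replicate 1 (blue) and without day 25 replicate 1 (red), with the number of genes tested in brackets. Rod phototransduction is at 3.09 and neurogenic factors at -2.26 with all libraries, beside -0.04 for all genes tested, and leaving out day 18 replicate 1 brings most of the outer lists nearer to 0.

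Markers of other cell types were present in the sorted cells at levels that differed between libraries, and their part in the results was not tested. The summed level of 11 Müller glia markers was 301.7 to 666.7 CPM in late libraries and 607 to 1259 CPM in early libraries. But of the 10 tested 6 were positive (median 0.24, and 0.54 without day 18 replicate 1). With day 1 rose and 3 fell, beside 5.69% and 7.89% of all genes. The highest by mean level was Dkk3, 792.8 of the 1259 CPM in day 18 replicate 1, with 198.9, 38.9, 20.8 and 13.7 CPM in late libraries, against 792.8, 305.3 and 182.5 CPM in early libraries, and it fell with day (adjusted p = 0.015 by limma). Retinal progenitors are also known to express Dkk3. Apoe, the next highest, was 56.7 to 205.8 CPM in late libraries and 33.0 to 200.6 CPM in early libraries, overlapped, and had a log2 fold change of 0.43 (limma adjusted p = 0.707) that turned to -0.33 without day 18 replicate 1. Clu, a secreted chaperone named after its values were seen, had 66.6, 40.4, 70.5 and 108.8 CPM in late libraries, against 10.6, 43.6 and 27.3 CPM in early libraries, and rose with day (limma adjusted p = 0.0373). The next members were named in the same way. Glul did not overlap and fell with day (limma adjusted p = 0.026). Aqp4 and Rlbp1 overlapped and were highest in day 28, at 29.2 and 15.0 CPM. Slc1a3 and Kcnj10 also overlapped but were highest in day 18 replicate 1, at 39.3 and 6.36 CPM. Gfap, of the injury response genes, was 135.5 CPM in day 28 and 1.16 to 27.0 CPM in the other libraries. For 10 bipolar markers the sum was 79.4 to 107.4 CPM in late libraries and 45.9 to 114.6 CPM in early libraries, with 3 of the 8 tested positive and 5 negative. Grm6, the receptor that defines ON bipolar cells, was 0 to 1.23 CPM in late libraries and 0.03 to 0.77 CPM in early libraries, while Prkca, which rod bipolar cells and other cells express, rose with day (0.96 between periods, limma adjusted p = 0.0425 for the slope). For 8 amacrine markers the sum was 149.4 to 203.3 CPM in late libraries and 82.1 to 150.5 CPM in early libraries. Slc6a9, a glycine transporter, and Gad1, an enzyme of GABA synthesis, were the highest by level, with log2 fold changes of 1.13 and 1.62 (limma adjusted p = 0.168 and 0.194). The other 4 of the 6 tested were negative. Of these Gad2, Tfap2a and Tfap2b, named after their values were seen, fell with day (limma adjusted p = 0.0335, 0.0335 and 0.0327), beside 7.89% of all genes. Tfap2b averaged 2.84 ± 2.48 CPM in late libraries (SD, n = 4) and 19.2 ± 15.2 CPM in early libraries (SD, n = 3). Chat, a defining marker, was listed at 0 in all 4 late libraries and was 0 to 0.231 CPM in early libraries.

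For 11 horizontal and ganglion cell markers the sum was 204.3, 71.8, 38.6 and 32.3 CPM in late libraries, against 301, 124.8 and 132.9 CPM in early libraries. The highest were Onecut2 and Onecut1 (-0.94 and -1.29, limma adjusted p = 0.177 and 0.328), which progenitors and young photoreceptors also express. For 10 pigment epithelium markers the sum was 86.2 to 288.7 CPM in late libraries and 33.8 to 81.9 CPM in early libraries. That came with Ttr, transthyretin, which had 62.5, 62.7, 276.9 and 91.3 CPM in late libraries, against 13.9, 11.7 and 18.9 CPM in early libraries and rose with day (adjusted p = 0.0381 by limma). The other 5 of the 6 tested were negative. Dct, the melanin enzyme, overlapped (-0.84, limma adjusted p = 0.496). For 9 fibroblast markers the sum was 26.3 to 119.5 CPM in late libraries and 30.9 to 169.8 CPM in early libraries. Fn1, fibronectin, was 139.6 of the 169.8 CPM in day 18 replicate 1 and fell with day (adjusted p = 0.0171 by limma). The other 8 were positive with all libraries (median of the 9 0.85, and 1.11 without day 18 replicate 1), and none of them passed. Col3a1, a fibrillar collagen, had 15.2, 1.98, 38.0 and 16.3 CPM in late libraries, against 2.13, 0.83 and 0.97 CPM in early libraries, so it overlapped (2.59, limma adjusted p = 0.144).

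For 8 forebrain markers the sum was 51.2, 20.8, 9.89 and 6.62 CPM in late libraries, against 236.7, 24.1 and 16.3 CPM in early libraries. Day 18 replicate 1 was the highest of the 7, all 7 tested were negative, and their median of -1.20 was 0.05 without that library. For 8 pluripotency markers the sum was 10.1 to 13.2 CPM in late libraries and 3.96 to 12.7 CPM in early libraries, and Zfp42, Utf1 and Dppa3 were listed at 0 in all 7. The summed levels of 8 microglia and blood markers (1.47 to 3.76 CPM in late and 1.44 to 6.06 CPM in early libraries) and of 8 lens markers (2.06 to 8.06 and 3.05 to 5.34 CPM) were near 0. For 5 vessel markers the sum was 35.5, 28.7, 15.4 and 6.70 CPM in late libraries, against 112.5, 117.9 and 43.4 CPM in early libraries. Nearly all of it was Kdr, a receptor of vascular growth factor that retinal progenitors also express, while the endothelial marker Cdh5 was listed at 0 in 6 of the 7 libraries.

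Whether the change with time differed between sources was tested as an interaction over all 16 libraries, with 3 late and 6 early ESC libraries (days 25, 28 and 35, and days 18 and 21). Limma called 0 of 15202 genes (0%), 360 passed an unadjusted p under 0.05, and the smallest adjusted p was 1. The 95% interval of the difference reached a median of 0.93 to either side on the log2 scale, so differences of that size were not detectable for most genes. For Pde6a the log2 fold change, late minus early, was 4.29 in iPSC and 3.90 in ESC libraries, and the difference of 0.39 had a 95% interval of -2.42 to 3.19. For Aipl1 it was 2.39 in iPSC and 1.73 in ESC libraries, with a difference of 0.66 (-2.39 to 3.71), and for Abca4 2.06 and 1.21, with a difference of 0.85 (-1.37 to 3.07). The days are not balanced between the sources: the iPSC late group has 2 libraries of day 25 and the ESC late group 1, and 3 of the 6 ESC early libraries are of day 21. Nor did the mean of Ddx3y, Eif2s3y and Uty follow the source label throughout. It was 0.927 CPM in ESC day 18 replicate 1 and 25.6 to 73.8 CPM in the other ESC libraries. In iPSC libraries it was 42.2 CPM in day 18 replicate 2, 11.5 CPM in day 25 replicate 1 and 0.625 to 1.48 CPM in the others. The test took the sources as labelled.

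Among the landmark genes the largest difference was that of Mki67, which had a log2 fold change of -3.62 in iPSC and -0.78 in ESC libraries, with a difference of -2.84 (95% interval -6.29 to 0.61, limma adjusted p = 1). It averaged 26.3 CPM in late iPSC libraries and 226.1 CPM in early iPSC libraries, and 52.5 CPM in late ESC libraries and 137.5 CPM in early ESC libraries. By the lowest unadjusted p the first 6 genes were Sowaha, Col4a3, BC064078, 3110035E14Rik, Sox8 and St8sia5, all lower with time in iPSC libraries and higher in ESC libraries, at an adjusted p of 1 by limma. Sox8, a SoxE transcription factor, averaged 4.17 CPM in late and 12.9 CPM in early iPSC libraries, and 23.7 CPM in late and 8.03 CPM in early ESC libraries (difference -2.67, 95% interval -4.21 to -1.13). Sowaha averaged 0.60 CPM in late and 1.75 CPM in early iPSC libraries, and 4.48 CPM in late and 1.20 CPM in early ESC libraries (-2.01, 95% interval -3.06 to -0.95). For Col4a3, a basement membrane collagen chain, and St8sia5, a sialyltransferase, the late and early iPSC means were under 1 CPM.

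**Figure D5:**
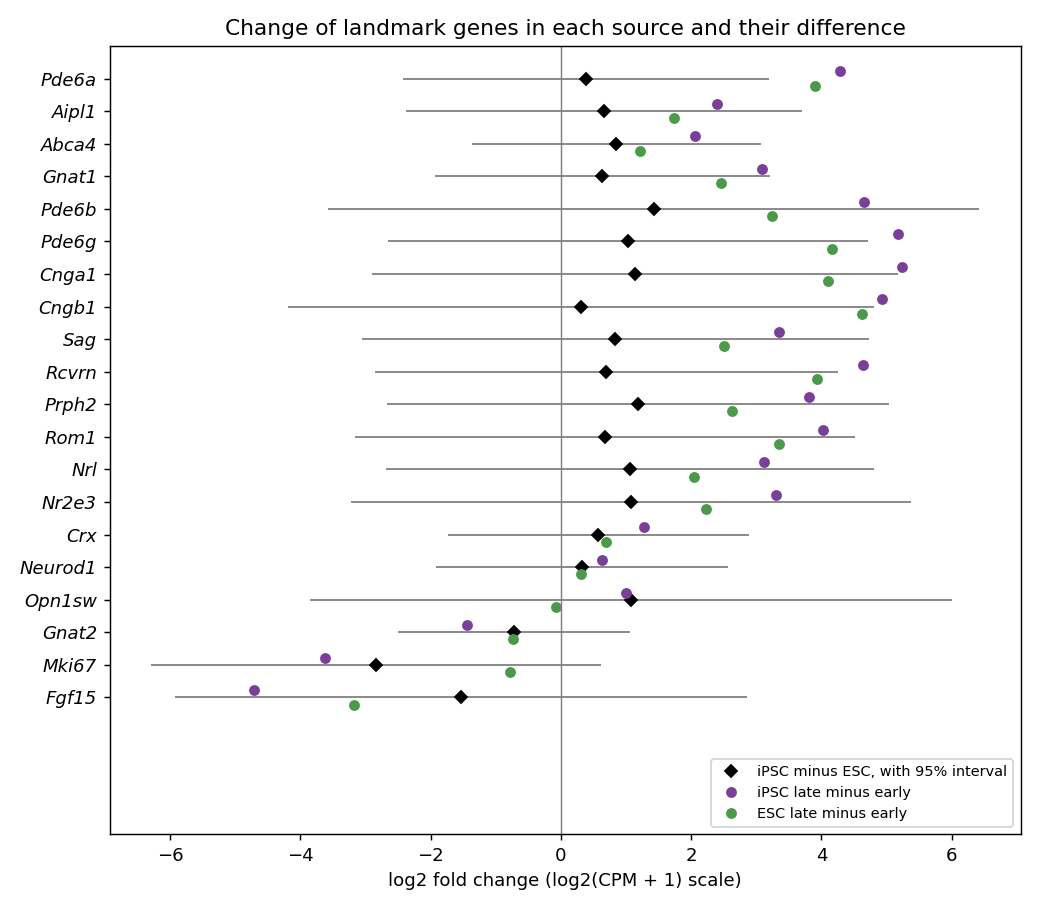
Log2 fold change, late minus early, of 20 genes in iPSC libraries (purple) and ESC libraries (green), with the difference between sources, iPSC minus ESC, and its 95% interval (black). Every rod gene shown is positive in both sources, and the 95% interval of every difference shown includes 0.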

How the data were processed

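The 7 iPSC libraries were polyA RNA-seq of sorted GFP-positive cells. Per the submitters' processing notes, adapters were removed by Trimmomatic 0.36 and transcripts of Ensembl release 84 (GRCm38.p4) were quantified by kallisto 0.42.5. As the design text has it, the authors summarised genes by tximport and computed CPM in edgeR. The gene table as deposited holds a score. Squaring log2(CPM + 1) and subtracting 1 gives that score: among 8688 genes above 0 in all 16 libraries, 8488 (97.7%) kept a constant ratio to the authors' deposited TPM at a tolerance of 1e-04 on the log2 scale. It was turned back to CPM. The deposited tables of kallisto's estimated counts and TPM hold 65535 transcripts, so gene sums are complete for 11547 genes.

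Genes with at least 1 CPM in at least 2 iPSC libraries were tested with limma 3.58.1 (R 4.3.3, trend, log2(CPM + 1), 1 mean per period). Fold changes on that scale understate low genes. The difference between sources was an interaction of source and period over 16 libraries. Alternatives were edgeR 4.0.16 and DESeq2 1.42.0 on rounded gene sums of at least 10 estimated counts in 2 libraries, another pseudocount (0.1), filters and scalings, each library left out, a replicate block, library weights and a slope on day. Late from day 28, and the slope without each library, were chosen after seeing the data. The limma fit of periods was tested on simulated data. Genes and lists were chosen with earlier results of these data known. Named genes are landmark photoreceptor genes, the 2 members of each list with the highest mean CPM, and the 6 lowest p of the interaction. Others are said to be chosen after their values were seen, and some genes that the rule gives are not reported here.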

Additional observations from a re-analysis of the deposited data

Results flagged for a closer look

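A single library far from the other 3 late libraries was found for 10 of the genes named above and for 2 more, Crabp1 and Egr1, by the gap between it and its nearest neighbour as a share of the range of the late group, judged by Dixon's 95% critical value. Chance alone flags about 1 in 20 such groups, so with the many genes named here some of the 12 flags are expected by chance. The critical value takes the values of a group as draws from 1 normal distribution, whereas the late libraries differ in day. The flags thus describe the libraries and are not a test of them. In 11 of the 12 the library was day 25 replicate 1. It was the lowest late library for Crx (1466 CPM) and Sag (431.5 CPM). It was the highest late library for the progenitor genes Fgf15 (86.11 CPM) and Sfrp2 (15.73 CPM), and for the neurogenic genes Foxn4 (20.6 CPM) and Btg2 (685.5 CPM). The same held for Aldh1a1 (113.2 CPM), for Crabp1, a cytoplasmic retinoic acid binding protein (20.69 CPM), for Dkk3 (198.9 CPM), for Gad2 (4.881 CPM) and for the immediate early gene Egr1 (365 CPM). The remaining one was Ttr, at 276.9 CPM in day 28.

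Values of day 25 replicate 1 that go with these are its mean level of the Y-linked genes Ddx3y, Eif2s3y and Uty of 11.5 CPM, which only day 18 replicate 2 exceeded among iPSC libraries (42.2 CPM), its correlation of 0.979 with that library, and its Mki67 level of 77.1 CPM, against 1.20 to 21.9 CPM in the other late libraries. Their part in the results was not tested.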

How the results depend on the processing

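The count of 0 called genes held under 17 of the 23 alternatives to the test of periods, and under all 13 to the test between sources. The exceptions were 1279 genes without day 25 replicate 1, 2607 with library weights (where day 18 replicate 2 weighed 6.35), 1946 by the slope on day, 448 without both libraries with a high mean of 3 Y-linked genes, 509 with late from day 28, and 825 by DESeq2. The cause was not tested. Leaving out 1 library gave 0 to 1279 calls for the periods and 0 to 1636 for the slope, with 0 without day 35 and 479 without day 28. Among single genes, Neurod1 turned to -0.074 with library weights and ranged from -0.2 to 1.05 with 1 library left out. Opn1sw turned to -0.437 with library weights, -0.066 per day by the slope and -0.858 with late from day 28, and ranged from -0.56 to 2.13. Gnb3 turned to -0.03 with library weights and ranged from -0.046 to 1.88. Apoe turned to -0.325 without day 18 replicate 1 and ranged from that to 0.96. All other genes whose fold change is given kept their direction. List medians moved by less than the replicate spread in 796 checks and by more in 40. The replicate number as a block called 0 genes. The day 18 and day 25 differences between replicates 2 and 1 correlated at 0.389 over genes, but the labels do not say that a number marks a shared culture. With 4 and 3 libraries and 1 count worth up to 0.214 CPM, genes near 1 CPM are measured coarsely.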

Other observations

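Further gene groups were measured in the same libraries. Of 13 heat shock and early response genes tested, 9 were negative (median -0.54), 5 did not overlap and were lower in late libraries (10.2% of all genes), and 4 fell without day 25 replicate 1 (5.47% of all genes). With day, 1 rose and 2 fell (5.69% and 7.89% of all genes). Fosb, an immediate early factor named after its values were seen, had 18.4, 4.03, 13.5 and 12.4 CPM in late libraries, against 46.9, 64 and 41.6 CPM in early libraries. Of 15 genes of the integrated stress response the groups did not separate in any (median 0.16), beside 7.33% of all genes higher and 10.2% lower. Of 12 injury response genes the median was 0.89, 1 did not overlap and was higher (7.33% of all genes), and 3 rose with day (5.69% of all genes). Without day 25 replicate 1, 1 rose (3.45% of all genes). Of 15 imprinted genes the median was -0.36, with 1 rising and 2 falling with day (5.69% and 7.89% of all genes), among them Nnat, an endoplasmic reticulum protein named after its values were seen, with 120.1, 37.8, 36.9 and 8.40 CPM in late libraries and 394.6, 184.2 and 133.1 CPM in early libraries. Without day 25 replicate 1, 1 imprinted gene rose and 5 fell (3.45% and 5.47% of all genes). Cholesterol synthesis (18 genes, median -0.27), long-chain lipid genes (15 genes, median 0.18), apoptosis genes (15, median -0.26) and creatine and energy buffering genes (8, median -0.06) had 0 to 1 calls in either direction by the slope on day.

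Some genes outside every photoreceptor list differed by as much, and all are named after their values were seen. Nt5e, the ecto-5'-nucleotidase CD73 that marks young rods in the mouse, had 59.8, 104.4, 145.6 and 216.6 CPM in late libraries, against 2.09, 9.22 and 19.7 CPM in early libraries. The groups were far apart (log2 fold change 3.79, limma adjusted p = 0.144), and Nt5e rose with day (adjusted p = 0.015 by limma). Syne1, a nesprin that links the nuclear envelope to the cytoskeleton, had 27.9, 59.0, 57.0 and 86.7 CPM in late libraries, against 9.77, 7.97 and 13.0 CPM in early libraries. Its log2 fold change of 2.30 was 2.28 without day 18 replicate 1, and it rose with day (limma adjusted p = 0.0135). Ckmt1, a mitochondrial creatine kinase, had 26.4, 31.8, 98.9 and 124.2 CPM in late libraries, against 7.41, 10.1 and 8.44 CPM in early libraries, with steps at day 25 and at day 28. Mpp4, a scaffold of the photoreceptor terminal, had 356.9, 981, 1111 and 1956 CPM in late libraries, against 7.72, 242 and 168.5 CPM in early libraries, and its log2 fold change of 3.72 was 2.20 without day 18 replicate 1.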
